A study of Mus musculus with 8 samples.

Results

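The 9 genes Zfp352, Tcstv1, Tcstv3, Usp17la, Usp17lc, Usp17le, Tdpoz4, Tmem92 and Sp110 belong to the transcripts of the 2-cell-like state outside the Zscan4 cluster, and were followed in control and Dax1-deficient mouse embryonic stem cells (ESCs). They were named as a list, matched by symbol to the Ensembl identifiers of the count tables, and all 9 were found among the 52550 genes listed. The list was drawn up with results of these libraries already known and counts as selected on the read counts of the 4 groups, so every contrast among them is given as a description. Each of the 9 passed the filter on low counts, which left 20749 genes.

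Control ESCs, and Dax1KO ESCs in which Dax1 (Nr0b1, an orphan nuclear receptor that acts mainly as a corepressor) was disrupted with a lentiviral CRISPR/Cas9 vector, were each grown in 2i/LIF and in LIF/serum, and mRNA was sequenced from 2 libraries of each of the 4 groups. 2i/LIF is serum-free N2B27 medium with 1 µM PD0325901 (a MEK inhibitor), 3 µM CHIR99021 (a GSK3 inhibitor) and 10 ng/ml LIF, and LIF/serum holds 15% FBS and 10 ng/ml LIF. All cells were at passage 3 on gelatin without feeders. The Dax1KO cells came from 1 clone, Dax1KO-7, that was established in 2i/LIF and then moved to LIF/serum, so the effect of the knockout and the properties of that clone cannot be told apart. Nothing states that the 2 libraries of a group came from separate cultures, so the P values measure the spread between these libraries, which may be technical.

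A small share of mouse ESCs in culture passes through a state in which genes of the 2-cell embryo are transcribed. The transcription factor Dux opens this state, and many of its targets, and the long terminal repeats of the MERVL retrovirus, are switched on with it and then silenced again when the cells return to the pluripotent state. Zfp352 encodes a zinc finger protein, Tcstv1 and Tcstv3 are small genes of the 2-cell-stage variable group, the Usp17l genes encode deubiquitinating enzymes, Tdpoz4 encodes a protein with a MATH and a BTB (POZ) domain, Tmem92 a transmembrane protein and Sp110 a nuclear body protein inducible by interferon. In bulk RNA, fewer cells in this state and less RNA per cell cannot be told apart.

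Depth was nearly the same in the 8 libraries, between 35911384 and 37286251 counts. The targeted gene, Nr0b1, followed the labels: control cells held 456 and 300 reads of it in 2i/LIF and 5095 and 4689 in LIF/serum, and Dax1KO cells held none in either library in 2i/LIF and 14 and 6 in LIF/serum. The 8 ESC markers (Pou5f1, Sox2, Nanog, Zfp42, Esrrb, Klf4, Tdgf1, Dppa5a) summed to between 5360 and 6720 CPM in every library and none was at 0. The 6 primitive endoderm markers summed to 28.8 to 29.2 CPM in control cells and 29.4 to 37.9 CPM in Dax1KO cells in 2i/LIF, 107 to 149 CPM in control cells in LIF/serum and 334 to 396 CPM in Dax1KO cells in LIF/serum, with none of them at 0. In 2i/LIF, 3 of the 6 had estimates above 0 in Dax1KO against control cells and 1 was called, where 3.16% of all genes were. It was Dab2, which was higher in Dax1KO cells (1.28 ± 0.26 on the log2 scale, 213 and 285 reads in control against 511 and 732). In LIF/serum all 6 were above 0 and 5 were called higher, where 14.7% of all genes were called and 1841 of 20749 were called higher. The 6 fibroblast markers summed to 51.0 to 64.3 CPM in control cells and 34.4 to 36.7 CPM in Dax1KO cells in 2i/LIF, and to 12.5 to 13.2 CPM in control cells and 39.0 to 40.8 CPM in Dax1KO cells in LIF/serum. Of these, Col3a1, Postn and Lum were at 0 in all libraries in LIF/serum, while Thy1 (1.63 ± 0.15 on the log2 scale) and Col1a1 (2.13 ± 0.37) were called higher in Dax1KO than in control cells there, and Thy1 was called lower in Dax1KO cells in 2i/LIF (-0.85 ± 0.15). Thy1 held most of the fibroblast sum in 2i/LIF, and 4 of the 5 markers tested had estimates above 0 there (median 1.35). These were Col1a2 (1.60 ± 0.94), Lum (1.37 ± 0.68), Postn (1.35 ± 0.65) and Col1a1 (0.05 ± 0.34). None of the 4 was called, where 3.16% of all genes were. The part of endoderm-marked or fibroblast-marked cells in the values below was not tested.

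The 9 genes lie on 6 chromosomes, with all 3 of the Usp17l genes on chromosome 7. In GRCm38 coordinates, Usp17lc (ENSMUSG00000058976.4) lies at chr7:103415072-103419880 on the plus strand, Usp17le (ENSMUSG00000043073.10) at chr7:104768049-104777470 on the minus strand and Usp17la (ENSMUSG00000054568.7) at chr7:104857009-104862667 on the plus strand. Tcstv1 (ENSMUSG00000096284.2) at chr13:119893388-119894785 on the minus strand and Tcstv3 (ENSMUSG00000095821.2) at chr13:120316878-120318178 on the plus strand share chromosome 13. Zfp352 (ENSMUSG00000070902.5) is at chr4:90218820-90225702 (plus), Tdpoz4 (ENSMUSG00000060256.1) at chr3:93796398-93797510 (plus), Tmem92 (ENSMUSG00000075610.9) at chr11:94777217-94782703 (minus) and Sp110 (ENSMUSG00000070034.13) at chr1:85576899-85598817 (minus). All are annotated as protein coding. Usp17lc overlaps the miRNA gene Gm25774, with at most 4 reads in a library, and Sp110 overlaps G530012D18Rik on the opposite strand, with at most 6.

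RefSeq promoter windows of GRCm38.p6 were at hand for 5 of the 9 genes (Zfp352, Usp17la, Usp17lc, Tdpoz4 and Sp110), and not for Tcstv1, Tcstv3, Usp17le and Tmem92. The windows of Zfp352 and of the upstream start of Sp110 are shown because they share a run of 15 bases, present in 3 copies on the printed strand of each. They are the 250 bases before the start, 5′ to 3′ on the strand of the gene, at chr4:90218570-90218819 (plus) and chr1:85603892-85604141 (minus), with the shared run in capitals.
Zfp352: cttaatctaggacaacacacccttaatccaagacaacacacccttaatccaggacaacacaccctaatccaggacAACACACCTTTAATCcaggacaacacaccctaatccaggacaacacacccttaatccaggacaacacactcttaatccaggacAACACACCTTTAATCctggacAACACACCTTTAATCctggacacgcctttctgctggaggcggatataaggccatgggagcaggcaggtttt
Sp110: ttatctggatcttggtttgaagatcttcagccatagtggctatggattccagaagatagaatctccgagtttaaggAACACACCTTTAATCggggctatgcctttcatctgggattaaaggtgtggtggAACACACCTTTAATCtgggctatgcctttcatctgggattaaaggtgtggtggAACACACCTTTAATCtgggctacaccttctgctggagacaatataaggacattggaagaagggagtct
This Sp110 start lies upstream of the gene in the GENCODE annotation, and its other RefSeq start does not hold the run. The run was picked after the sequences had been seen. It occurs on either strand in 23 of 32851 RefSeq windows of 250 bases (0.07%), from 22 gene symbols.

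The other 20 symbols with the run included 8 genes that passed the filter, and 5 of these were DEGs in Dax1KO against control cells in 2i/LIF, all lower, where 3.16% of all genes were called and 1.65% were lower. These 5 (Gm4340, Gm21293, Gm21304, Gm21312 and Gm8764) were at least 99.6% identical to each other over the 250 bases before the start. Their transcripts were not compared with each other, so whether they share reads was not tested. The 5 calls are therefore not counted as independent. Gm4340, the deepest of them, had 158 and 413 reads in control cells in 2i/LIF, 19 and 19 in Dax1KO cells in 2i/LIF, 3944 and 5864 in control cells in LIF/serum and 3082 and 3058 in Dax1KO cells in LIF/serum. Gm12790, Gm20765 and Pemt were the 3 that were not called in 2i/LIF, with estimates of -0.57, -2.15 and -0.61.

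The windows of Usp17la (chr7:104856766-104857015, plus) and Usp17lc (chr7:103416446-103416695, plus) were 95.2% identical over the 208 bases in which they overlapped when aligned, and shared a run of 49 bases. The Usp17lc window lies before a RefSeq start that is inside the GENCODE gene, downstream of its annotated first base. They are printed because Usp17lc held the only match, in the 6 windows, to any of 4 motifs searched on both strands. The match, in capitals, was TATAAA, the letters of a TATA box, at -88 to -83 from that RefSeq start. Whether it works as a TATA box was not tested.
Usp17la: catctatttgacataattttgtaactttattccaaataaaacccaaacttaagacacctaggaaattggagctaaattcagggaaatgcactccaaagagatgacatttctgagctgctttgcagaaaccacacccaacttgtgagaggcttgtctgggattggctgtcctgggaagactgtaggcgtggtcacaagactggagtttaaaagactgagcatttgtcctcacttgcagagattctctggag
Usp17lc: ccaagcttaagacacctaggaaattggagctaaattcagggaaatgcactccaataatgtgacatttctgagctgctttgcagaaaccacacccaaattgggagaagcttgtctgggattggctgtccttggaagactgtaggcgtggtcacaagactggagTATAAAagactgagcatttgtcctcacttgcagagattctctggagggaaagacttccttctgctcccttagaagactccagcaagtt
The motifs were TATAAA, found in 13.6% of the 32851 windows of 300 bases, GATTNAATC (core of the motif of mouse Dux, 0.268%), TGCACAC (Zscan4, 4.4%) and TCAAGGTCA (Esrrb and Nr5a2, 0.423%). No match says only that these letters are not in these windows.

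In Dax1KO against control cells in 2i/LIF, all 9 genes had an estimate below 0. The median log2 fold change was -2.59 (-2.51 with the 2 genes at 0 in Dax1KO cells set at their bound), against -0.011 over all genes tested, and 8 of the 9 had both Dax1KO libraries below both control libraries. A DEG was a gene with an adjusted P of at most 0.05 in edgeR's quasi-likelihood test, by the Benjamini-Hochberg method, and a fold change of at least 1.2. By this rule 3 of the 9 (Tdpoz4, Sp110 and Tcstv3) were lower, where 3.16% of all genes were called in either direction, 1.65% were lower and 26.8% had Dax1KO libraries wholly below the controls. Because this contrast may have served to pick the genes, nothing is read from these counts.

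**Figure D1:**
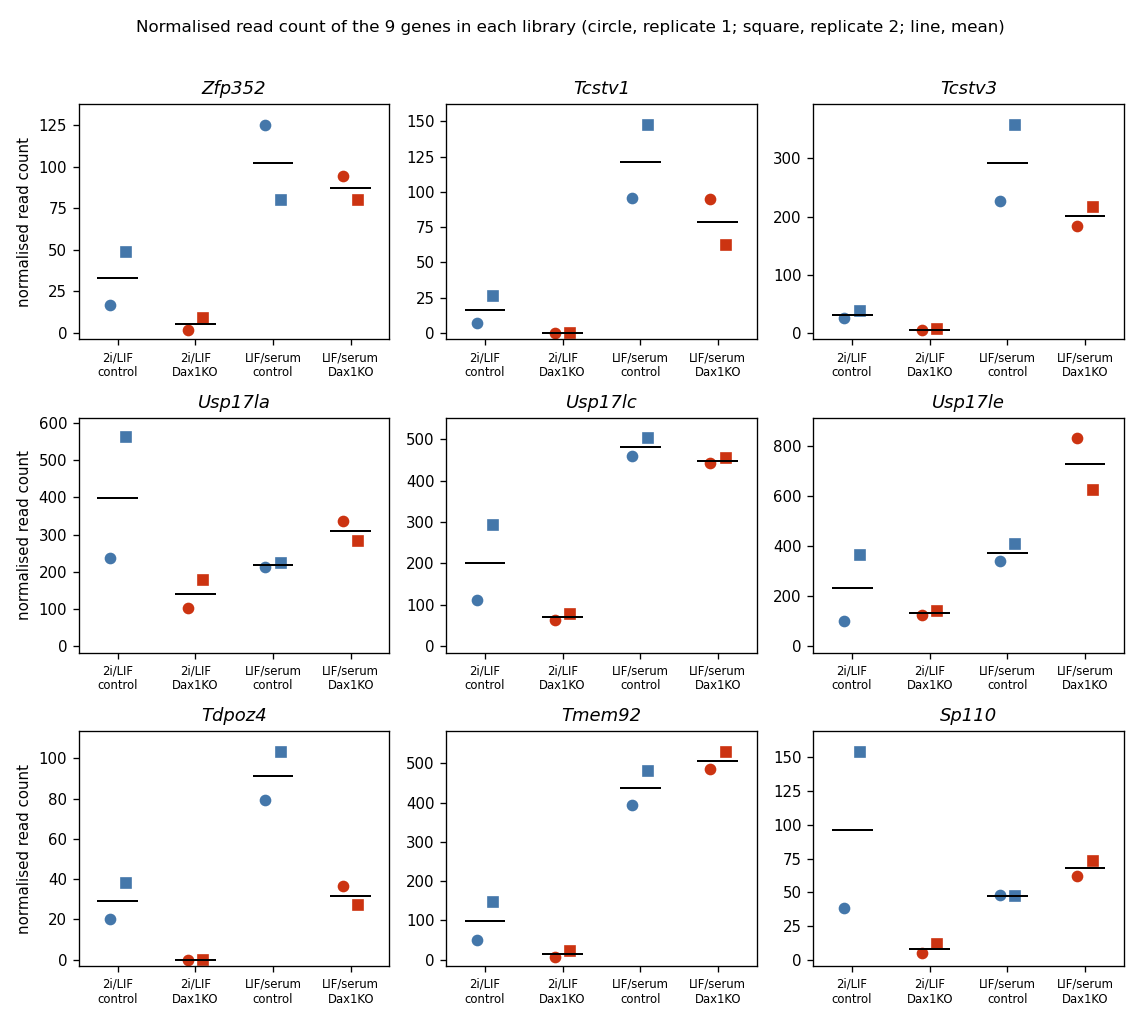
Normalised read counts (linear axis from 0) of the 9 genes in each of the 8 libraries, by group, with circles for replicate 1, squares for replicate 2 and a line at the mean. In 2i/LIF the Dax1KO libraries sit below both control libraries for every gene except Usp17le, and Tcstv1 and Tdpoz4 have 0 reads in both of them.

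Zfp352, the zinc finger gene, had 17 and 49 reads in control cells in 2i/LIF, 2 and 9 in Dax1KO cells in 2i/LIF, 118 and 75 in control cells in LIF/serum and 99 and 82 in Dax1KO cells in LIF/serum. The Dax1KO libraries in 2i/LIF were lowest and did not overlap the controls, and in LIF/serum the 2 groups overlapped. The log2 fold change (± SE) of Dax1KO over control was -2.59 ± 0.72 in 2i/LIF and -0.23 ± 0.55 in LIF/serum. The latter turned to 0.13 without replicate 1 of the control cells in LIF/serum. Between media it was -1.63 ± 0.58 in control cells and -3.99 ± 0.70 in Dax1KO cells, 2i/LIF over LIF/serum.

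Of the variable group, Tcstv1 had 7 and 26 reads in control cells in 2i/LIF, 0 and 0 in Dax1KO cells in 2i/LIF, 90 and 138 in control cells in LIF/serum and 99 and 64 in Dax1KO cells in LIF/serum. With both Dax1KO libraries in 2i/LIF at 0, only a bound can be given. Against a floor of 3 counts per library, Tcstv1 was at least 5.5-fold lower than in control cells in 2i/LIF and at least 26.2-fold lower than in Dax1KO cells in LIF/serum. The first bound was 2.34 with replicate 1 of the control cells alone and 8.67 with replicate 2 alone. Tcstv3 had 25 and 37, 5 and 6, 214 and 335, and 192 and 223 reads in the same order of groups. Its Dax1KO cells were lower at -2.51 ± 0.42 in 2i/LIF, and the value in LIF/serum was -0.54 ± 0.29, with both Dax1KO libraries below both controls after normalisation. Summed over both genes, the normalised read count was 47.6 ± 21.9 (SD, n = 2) and 5.36 ± 0.708 in control and Dax1KO cells in 2i/LIF, and 413 ± 129 and 279 ± 1.02 in LIF/serum.

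The deubiquitinating enzyme genes kept the most reads in Dax1KO cells in 2i/LIF. Usp17la had 236 and 562 reads in control cells in 2i/LIF, 106 and 182 in Dax1KO cells in 2i/LIF, 202 and 211 in control cells in LIF/serum and 352 and 290 in Dax1KO cells in LIF/serum. It was the only 1 of the 9 whose control libraries in 2i/LIF both lay above both in LIF/serum, as they did for 35.4% of all genes, at 0.86 ± 0.41. That difference was 0.06 without replicate 2 of the control cells in 2i/LIF and 1.36 without replicate 1. Its estimates for Dax1KO over control were -1.51 ± 0.41 in 2i/LIF and 0.50 ± 0.41 in LIF/serum.

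Usp17lc had 112 and 292, 66 and 80, 433 and 473, and 463 and 466 reads in the order control and Dax1KO in 2i/LIF, then control and Dax1KO in LIF/serum. Dax1KO over control was -1.5 ± 0.40 in 2i/LIF and -0.10 ± 0.37 in LIF/serum, and its 4 libraries in LIF/serum lay between 433 and 473 reads. Usp17le had 100 and 365, 129 and 143, 320 and 382, and 872 and 642 reads in that order. In 2i/LIF its Dax1KO libraries both lay between the 2 control libraries, at -0.81 ± 0.50. In LIF/serum it was the member with the highest estimate, 0.97 ± 0.48, and both Dax1KO libraries lay above both controls.

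The Usp17l family holds 6 annotated genes in these tables, of which 3 were not on the list. Among those 3, Usp17lb was a DEG in 2i/LIF, with 275 and 594 reads in control and 64 and 94 in Dax1KO cells (-2.49 ± 0.38, adjusted P = 0.0187 by edgeR's quasi-likelihood test). Usp17ld (-0.93 ± 0.42, adjusted P = 0.302) did not pass the test, and Usp17le-ps was below the filter. The family sum of normalised read counts was 1390 ± 849 in control and 482 ± 102 in Dax1KO cells in 2i/LIF, and 1630 ± 122 and 2070 ± 167 in LIF/serum (SD, n = 2).

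Tdpoz4, of the MATH and BTB domain genes, had 20 and 38 reads in control cells in 2i/LIF, 0 and 0 in Dax1KO cells in 2i/LIF, 75 and 97 in control cells in LIF/serum and 38 and 28 in Dax1KO cells in LIF/serum. It was lower in Dax1KO cells in both media without overlap, by at least 9.68-fold in 2i/LIF against the same floor. In LIF/serum the estimate was -1.52 ± 0.44, the lowest of the 9, and it was not called. Of the rest of the family, Tdpoz3 had 9 and 21, 0 and 3, 89 and 81, and 100 and 74 reads, Tdpoz1 had 0 in all 4 libraries in 2i/LIF and 4 to 11 in LIF/serum, and Tdpoz2 and Tdpoz5 had at most 14 in any library.

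Tmem92, the transmembrane protein gene, had 49 and 146 reads in control cells in 2i/LIF, 8 and 22 in Dax1KO cells in 2i/LIF, 372 and 451 in control cells in LIF/serum and 508 and 543 in Dax1KO cells in LIF/serum. Its Dax1KO cells lay below control in 2i/LIF (-2.73 ± 0.58) and above it in LIF/serum (0.21 ± 0.46), both without overlap of the libraries. Sp110, the nuclear body gene, had 38 and 154, 5 and 12, 45 and 44, and 65 and 75 reads in the order used above. The Dax1KO value in 2i/LIF was -3.51 ± 0.72. Unlike the other called genes, its control libraries in 2i/LIF lay on both sides of those in LIF/serum, at 1.02 ± 0.61. This value turned to -0.36 without replicate 2 of the control cells in 2i/LIF and was 1.7 without replicate 1.

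The 3 calls in 2i/LIF depended on single libraries, and calls over all genes fell as well in each of the fits named next. The number of genes called was 1 without replicate 2 of the control cells in 2i/LIF, 0 without either Dax1KO library in 2i/LIF, and 1 without replicate 2 of the Dax1KO cells in LIF/serum, which enters the shared spread. DESeq2 called 8 of the 9, all lower (all but Usp17le), where it called 1455 of 20749 genes, 694 of them lower. In a fit of the 4 libraries in 2i/LIF alone, 8 of the 9 (all but Tcstv1) had enough reads to be tested. It called 0 of these, and 533 of 19282 genes in all. In the fit of all libraries, 8 of the 9 had an unadjusted P under 0.05, as did 3712 of 20749 genes. The sizes moved as well when 1 library was left out. Without replicate 2 of the control cells in 2i/LIF the estimates were -1.63 for Zfp352, -2.17 for Sp110, -1.73 for Tmem92, -0.74 for Usp17la and -0.64 for Usp17lc, and Usp17le turned to 0.42. Without replicate 2 of the Dax1KO cells they were -4.0 for Zfp352, -4.27 for Sp110 and -3.63 for Tmem92, while Tcstv3 stayed between -2.76 and -2.18 whichever library was left out.

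**Figure D2:**
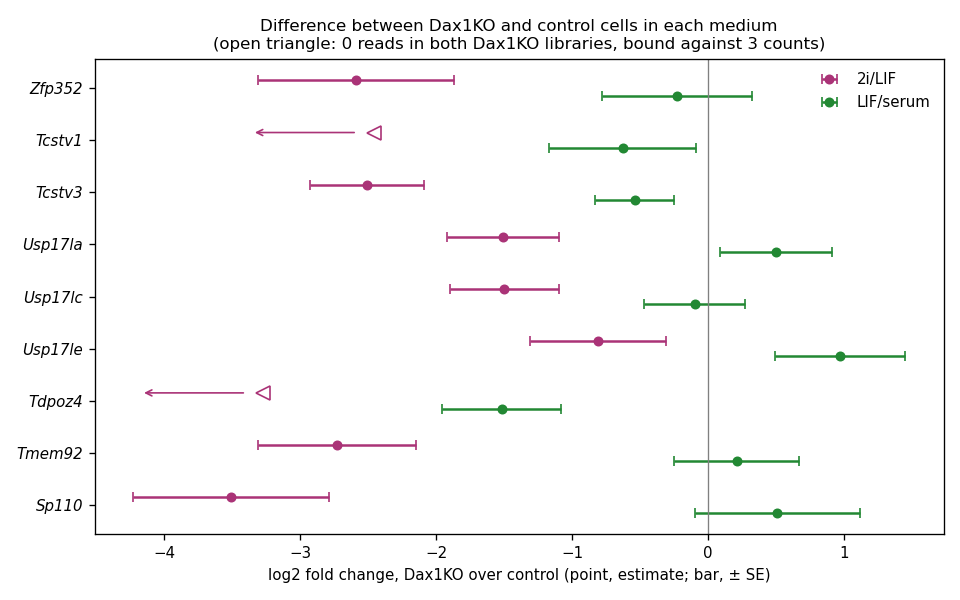
Log2 fold change of Dax1KO over control cells for the 9 genes (points, with bars of ± SE), in 2i/LIF and in LIF/serum, and open triangles with arrows at the bound for the 2 genes with 0 reads in both Dax1KO libraries. In 2i/LIF all 9 lie below 0, and in LIF/serum 4 lie above and 5 below it.

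In LIF/serum, no gene of the 9 was called by edgeR's quasi-likelihood test, where 14.7% of all genes were. 1 of the 9 had an unadjusted P under 0.05, where 6363 of 20749 genes did, and DESeq2 called 0, where it called 4006 of 20749 genes. The estimates ran from -1.52 (Tdpoz4) to 0.97 (Usp17le) with a median of -0.10, and 4 genes had both Dax1KO libraries above both controls and 4 had both below, against 30.3% and 27.3% of all genes. Usp17le, Usp17la, Sp110 and Tmem92 were the 4 above. A fit of the 4 libraries in LIF/serum alone called 2, Usp17le higher and Tdpoz4 lower, where it called 1743 of 19190 genes.

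For the difference of the Dax1KO effect between media, all 9 estimates were above 0, that is, each gene had the higher log2 fold change in LIF/serum, with a median of 2.36 (1.96 with the same 2 genes at their bound) against 0.02 over all genes. Only Tdpoz4 was called, where 2.87% of all genes were and 2.05% had the higher value in LIF/serum, and its fitted difference of 6.35 rests on a group at 0 and is no bound. All 9 had an unadjusted P under 0.05, as did 3970 of 20749 genes. DESeq2 called 5 of the 9, where it called 1510 of 20749 genes. Without replicate 1 of the control cells in 2i/LIF 4 were called, and without any 1 of the other 7 libraries 0. Calls over all genes for this difference fell whichever library was left out. The comparisons share libraries, the control cells in 2i/LIF entering both the Dax1KO and the medium comparison.

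Between media, control cells had 5 of the 9 lower in 2i/LIF (Tcstv3 -3.23 ± 0.33, Tcstv1 -2.87 ± 0.60, Tmem92 -2.16 ± 0.49, Tdpoz4 -1.65 ± 0.44 and Usp17lc -1.25 ± 0.38), where 36.8% of all genes were called and 16.5% were lower. Zfp352 (-1.63 ± 0.58) and Usp17le (-0.68 ± 0.49) had estimates below 0 and were not called. The count was 3 without replicate 1 or without replicate 2 of the control cells in LIF/serum. Calls over all genes fell in both of these fits as well. The sizes moved most with the control libraries in 2i/LIF. Without replicate 2 and without replicate 1 of these, the estimates were -4.13 and -2.21 for Tcstv1, -3.2 and -1.58 for Tmem92, -2.23 and -1.26 for Tdpoz4, -2.14 and -0.72 for Usp17lc, -2.62 and -1.06 for Zfp352, and -1.94 and -0.03 for Usp17le. Tcstv3 stayed between -3.58 and -2.89 whichever library was left out. In Dax1KO cells all 9 genes had both libraries in 2i/LIF below both in LIF/serum, as 33.3% of all genes did, and 8 were called lower, all but Usp17la (-1.14 ± 0.41), where 28.9% of genes were called and 13.7% were lower. Tmem92 stood at -5.10 ± 0.60 and Tcstv3 at -5.19 ± 0.40. Without replicate 2 and without replicate 1 of the Dax1KO cells in 2i/LIF, the values were -6.0 and -4.55 for Tmem92, -5.4 and -3.29 for Zfp352, -3.76 and -2.51 for Sp110 and -1.58 and -0.8 for Usp17la.

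The order of the 4 groups by mean normalised read count took 3 forms. In Zfp352, Tcstv1, Tcstv3, Usp17lc and Tdpoz4, control cells in LIF/serum were highest, followed by Dax1KO cells in LIF/serum, control cells in 2i/LIF and Dax1KO cells in 2i/LIF. Of these neighbours, the 2 groups in LIF/serum overlapped in Zfp352, and control cells in 2i/LIF overlapped Dax1KO cells in LIF/serum in Tdpoz4. Tmem92 and Usp17le had the same order with the 2 groups in LIF/serum exchanged, and in Usp17le control cells in 2i/LIF overlapped both Dax1KO cells in 2i/LIF and control cells in LIF/serum. In Usp17la and Sp110, control cells in 2i/LIF had the highest mean, with libraries on both sides of those of Dax1KO cells in LIF/serum.

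Per length, the genes differed in level by more than 10-fold. In control cells in LIF/serum Tcstv3 had the highest level, 10.2 ± 3.22 CPM per kilobase of exon (SD, n = 2), followed by Tmem92 at 5.45 ± 0.762, Usp17lc at 5.35 ± 0.356 and Usp17le at 5.11 ± 0.66, which lay within each other's spread. Tcstv1 at 2.36 ± 0.713, Usp17la at 2.25 ± 0.0789 and Tdpoz4 at 2.24 ± 0.414 formed a lower group, Zfp352 stood at 1.23 ± 0.381 and Sp110 was lowest at 0.190 ± 0.00221. In control cells in 2i/LIF the Usp17l genes led instead, with Usp17la at 4.09 ± 2.36, Usp17le at 3.19 ± 2.56 and Usp17lc at 2.24 ± 1.41, all overlapping. Duxf3 (Dux), the upstream factor, stood at 0.0656 ± 0.0499 CPM per kilobase in control cells in 2i/LIF and 0.639 ± 0.132 in LIF/serum.

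The 2 control libraries in 2i/LIF differed in the same direction for all 9 genes. Replicate 2 was above replicate 1 in each, by a median of 2.88-fold and between 1.48-fold (Tcstv3) and 4.04-fold (Sp110) in normalised read counts. With 0.5 added to each normalised count to allow for zeros, 8 of the 9 were at least 1.5-fold above it, as were 9.74% of all genes. Of the other 35 tested 2-cell-state genes, 20 were at least 1.5-fold above. In Dax1KO cells in 2i/LIF, 4 of the 9 were at least 1.5-fold higher in replicate 2 (8.47% of all genes), in control cells in LIF/serum 2 of the 9 (13.1%) and in Dax1KO cells in LIF/serum 0 of the 9 (10.7%).

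**Figure D3:**
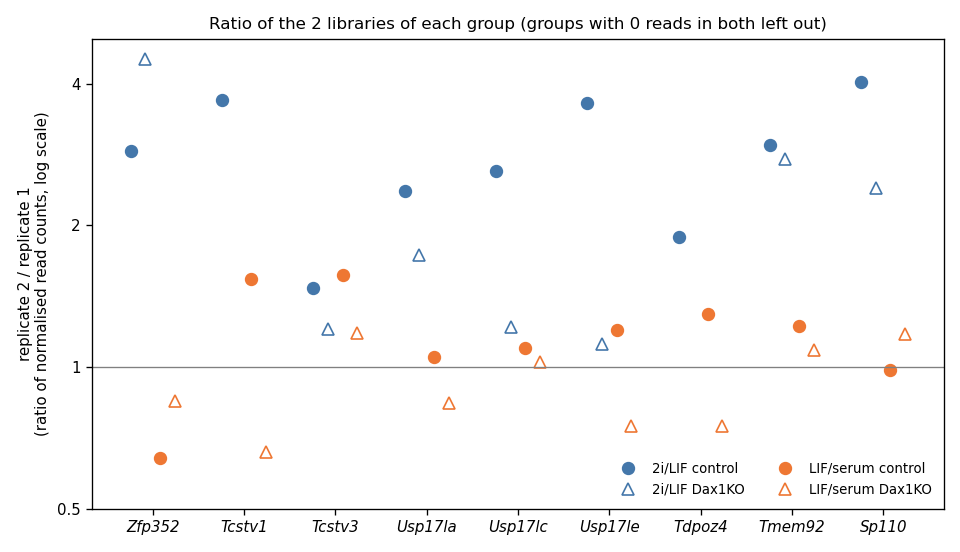
Ratio of normalised read counts of replicate 2 to replicate 1 (log axis) for each of the 9 genes in each group, leaving out Tcstv1 and Tdpoz4 in Dax1KO cells in 2i/LIF, which have 0 reads. In control cells in 2i/LIF (filled blue circles) all 9 ratios lie above 1, from 1.48 to 4.04.

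Several of the 9 have near-identical copies elsewhere in the genome, and how reads were split among them is not given in the sources used here. Tdpoz4 matched Gm5541 over its whole transcript (longest match 97.31% identical), and Sp110 likewise matched Gm16026 (97.62%). Usp17lc matched Usp17ld over 82.7% of its length, Zfp352 matched Zfp353-ps over 72.5%, Tcstv3 matched Gm21761 and Gm21818 over 65.1% and Tcstv1 matched Gm21818 over 58.5% and AF067061 over 51.2%, each at 95% identity or more. Usp17le and Usp17la matched over 99.9% of Usp17le at 94.65%. The values of these genes are uncertain to that extent.

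Read counts of the copies can be set beside them. Gm16026 had 30 and 64 reads in control cells in 2i/LIF, 0 and 8 in Dax1KO cells in 2i/LIF, 37 and 50 in control cells in LIF/serum and 74 and 60 in Dax1KO cells in LIF/serum. Gm5541 had 14 and 21, 0 and 3, 33 and 28, and 17 and 10 reads in that order, and Gm21761 had 49 and 140, 1 and 10, 699 and 1084, and 724 and 625. Of the 7 copies in all, 5 (these 3, Gm21818 and AF067061) had both Dax1KO libraries below both controls in 2i/LIF, as 26.8% of all genes did. Usp17ld, with 62 and 171 reads in control and 57 and 68 in Dax1KO cells, overlapped, unlike Usp17lc. Zfp353-ps, with 0 and 6 against 0 and 0, did not separate either, unlike Zfp352. With the counts of the Usp17l genes, the Tcstv genes and the Tdpoz genes each summed before the fit, Tcstv passed the test in 2i/LIF and the difference between media of Tdpoz did not.

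The wider 2-cell-state programme was followed with 43 other genes known from this state, of which 42 were found and 35 passed the filter. This list too was drawn up with earlier results of these data known, so its counts are not independent evidence. In Dax1KO against control cells in 2i/LIF, 18 of the 35 were lower and 0 were higher by edgeR's quasi-likelihood test, with 34 of 35 estimates below 0, where 3.16% of all genes were called and 1.65% were lower. The fitted median was -3.25, and -2.73 with the 7 genes at 0 in both Dax1KO libraries set at their bound. The 5 with the largest fitted change, 4 of them in the Zscan4 cluster of zinc finger and SCAN domain genes that marks this state, were at 0 in both Dax1KO libraries. Zscan4-ps2 was at least 37.7-fold lower, and Zscan4-ps3, Zscan4a, Gm12794 and Zscan4b were at least 21.4-, 19.9-, 13.7- and 8.68-fold lower. With replicate 1 of the control cells alone, the bound for Gm12794 was 8.69. The count of 18 fell without either Dax1KO library in 2i/LIF, as did calls over all genes.

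In LIF/serum 2 of these 35 genes were called, against 14.7% of all genes, Usp26 higher (1.32 ± 0.18, adjusted P = 0.00491 by edgeR's quasi-likelihood test) and Abcb5 lower (-1.67 ± 0.35, adjusted P = 0.0195). The count fell without either Dax1KO library in LIF/serum, as did calls over all genes. The difference of the Dax1KO effect between media was called for 16, all with the higher log2 fold change in LIF/serum, where 2.87% of all genes were called. This count fell without replicate 2 of the control cells in 2i/LIF and without any 1 of the Dax1KO libraries in either medium. Calls over all genes fell in each of these fits as well.

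In control cells 26 of the 35 were lower and 3 higher in 2i/LIF than in LIF/serum, where 36.8% of all genes were called. Zscan4b fell by 6.24 on the log2 scale (SE 0.30, adjusted P = 2.9e-05 by edgeR's quasi-likelihood test), and the 3 higher genes were Usp26 (4.26 ± 0.19), Obox6 (2.75 ± 0.49) and Pramel6 (2.74 ± 0.27). In Dax1KO cells 30 were lower and 2, Usp26 and Pramel6, were higher, where 28.9% of all genes were called.

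**Figure D4:**
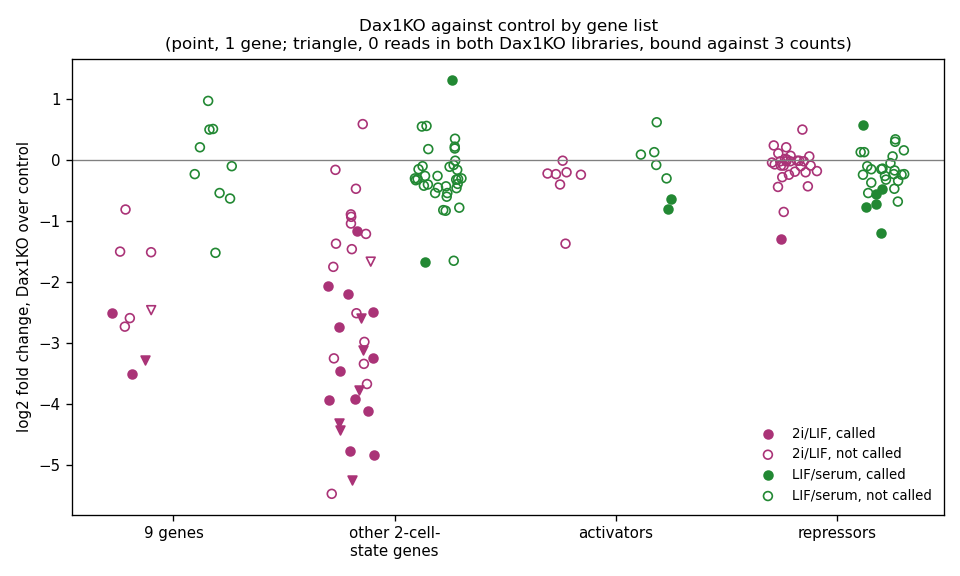
Log2 fold change of Dax1KO over control cells in 2i/LIF and LIF/serum for each tested gene of the 9, of the 35 other 2-cell-state genes and of the activators and repressors of the state (filled, called by the test; open, not called; triangles, bound for genes with 0 reads in both Dax1KO libraries). The 9 and the other 2-cell-state genes spread far below 0 in 2i/LIF, while most regulators lie near 0 in both media.

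Regulators of the state were counted in the same fits. Of 7 activators (Duxf3, Dppa2, Dppa4, Nelfa, Smarca5, Trp53 and Tbx3), edgeR's quasi-likelihood test called 0 in Dax1KO against control cells in 2i/LIF (3.16% of all genes) and 2 in LIF/serum (14.7%). None had an unadjusted P under 0.05 in 2i/LIF, where 3712 of 20749 genes did. Duxf3 itself had 3 and 10 reads in control and 3 and 2 in Dax1KO cells in 2i/LIF, near the floor, and 51 and 68 in control and 77 and 47 in Dax1KO cells in LIF/serum. In LIF/serum, Dax1KO cells had less of Trp53 (-0.80 ± 0.11, adjusted P = 0.00505), the p53 tumour suppressor, and of the chromatin remodeller Smarca5 (-0.63 ± 0.13, adjusted P = 0.019), by the same test. Between media, 6 of the 7 activators were called in control cells (36.8% of all genes), 5 lower in 2i/LIF and 1 higher. Duxf3 was lower (-3.26 ± 0.58, adjusted P = 0.00351 by edgeR's quasi-likelihood test), as were Dppa2 (-1.47 ± 0.18) and Dppa4 (-1.14 ± 0.11), chromatin factors that act upstream of Dux, Trp53 (-0.97 ± 0.11) and Smarca5 (-0.47 ± 0.13), and Tbx3 was higher (1.31 ± 0.20).

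Of 29 repressors, 1 was a DEG in 2i/LIF, a share near the 3.16% of all genes. It was Rnf2, a catalytic subunit of Polycomb complex PRC1 (-1.30 ± 0.19, adjusted P = 0.0172 by edgeR's quasi-likelihood test). In LIF/serum 5 were lower (Rnf2 at -1.20 ± 0.19, Rif1, Ncl, Usp7 and L3mbtl2) and 1, the PRC1 subunit Rybp, was higher (0.57 ± 0.15), beside 14.7% of all genes called. In control cells 4 repressors were higher in 2i/LIF than in LIF/serum (Chaf1b, Uhrf1, Dnmt1 and Rcor1) and 5 lower, led by Myc (-4.86 ± 0.34) and the RNA-binding protein gene Lin28a (-3.35 ± 0.41), no more of the list than the 36.8% of all genes called.

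Over the 8 libraries, the genes outside the list whose log2 CPM was most like the mean profile of the 9 were Gm5580, the pseudogenes Gm4971 and Gm1995, Gm21761 and Gm20767, with Pearson's r of 0.996, 0.994, 0.990, 0.988 and 0.987, among 14963 genes with a mean count of at least 50. Of these, 69 had r above 0.95. The 8 points form 4 groups and share the lower values in 2i/LIF, so r is a measure of likeness only. Gm21761 is a copy of Tcstv3, as given above, and Gm20767 matched 99.9% of the Tcstv3 transcript at 80% identity or more. The part of shared reads in their likeness was not tested. Gm5580 had 98 and 233 reads in control and 18 and 32 in Dax1KO cells in 2i/LIF, 447 and 547 in control and 578 and 595 in Dax1KO cells in LIF/serum. Among the 9 themselves, the r of each with the mean of the others was 0.92 or more for Zfp352, Tcstv1, Tcstv3, Usp17lc, Tdpoz4 and Tmem92, and was lower for Usp17le (0.83), Sp110 (0.81) and Usp17la (0.64).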

How the data were processed

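mRNA of ESCs was sequenced on an Illumina HiSeq. The submitters' processing notes name HISAT2 2.0.4, mm10 and DESeq2, and the counter, annotation and strand setting are not given in the sources used here. The deposited files hold raw counts, whole numbers per gene and library, made by the authors without normalization, and low values pile up at 3 and 6, so low counts may not be counts of single fragments. Groups and replicates came from the sample descriptions. Symbols came from GENCODE M21 for 52403 of 52550 genes.

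Counts were fitted with edgeR 4.0.16 in R 4.3.3 (filterByExpr, TMM, a mean for each of 4 groups, quasi-likelihood test, Benjamini-Hochberg over 20749 genes). Thresholds were an adjusted P of 0.05 and, except for differences between media, a fold change of 1.2. Scripts were tested on simulated data. Normalised read counts are scaled to the mean library size. Genes at 0 are given as bounds against 3 counts, and such floors cover counting error only. Depth of 35911384 to 37286251 counts per library limits genes with few reads.

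The 9 genes and the other lists were chosen with earlier results of these data known. Named were the 9 genes, their paralogs, Nr0b1, called genes of the lists (up to 5 each by size of change) and the 5 genes most alike in profile. Others named in the text (copies, genes with the shared run, cell type markers, list genes higher in 2i/LIF between media, genes not called) were chosen after their values were seen. Alternatives were DESeq2 1.42.0, RLE size factors, no filter, at least 10 counts in every library, a replicate block, separate fits, summed families and leaving out each library. Transcripts were compared with blastn 2.17.0 and promoters with Biopython 1.88, using RefSeq windows of 250 bases before and 50 after the start.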

Additional observations from a re-analysis of the deposited data

Results flagged for a closer look

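The effect of Dax1KO differed between media, by edgeR's quasi-likelihood test of the difference itself, for 16 of the 35 other 2-cell-state genes tested, where 2.87% of all genes were called. That list was drawn up with earlier results of these data known. Values are the log2 fold change of Dax1KO over control in LIF/serum minus that in 2i/LIF. For Tdpoz4, one of the 9 genes and so given as a description only, the difference was 6.35, and it was not called without a filter, with the replicate block or when any 1 library was left out, and was not among the genes with at least 10 counts in every library. Among the Zscan4 genes it was 8.48 for Zscan4a, 7.56 for Zscan4b, 3.14 for Zscan4c, 4.31 for Zscan4d, 4.67 for Zscan4e, 2.99 for Zscan4f, 6.79 for Zscan4-ps1, 9.52 for Zscan4-ps2 and 8.58 for Zscan4-ps3. It was 2.48 for Usp17lb, 1.62 for Gm5662, 1.66 for Gm2016, 3.12 for Gm4340, 3.14 for Gm6763, 2.92 for Ubtfl1 and 8.05 for Gm12794. Tdpoz4, Zscan4a, Zscan4b, Zscan4-ps1, Zscan4-ps2, Zscan4-ps3 and Gm12794 had 0 reads in both Dax1KO libraries in 2i/LIF, so their fitted differences are no bounds.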

How the results depend on the processing

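The 2 libraries of each group, and the low counts of the 9 genes in 2i/LIF, limit these calls. Where a library is left out, the lone one is assumed to vary like the other groups. Of 620 values for single genes and settings, 615 kept their sign, the 5 others being uncalled.

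For the 9 genes in Dax1KO against control in 2i/LIF, 3 were called, against 8 by DESeq2, 0 without a filter, 0 with at least 10 counts in every library (3 genes left), 0 in a separate fit (8 genes tested) and 0 to 4 when 1 library was left out. In LIF/serum, 0 became 2 in a separate fit and 0 to 1 with a library left out. In control cells between media, 5 became 1 of 3 with at least 10 counts and 3 to 7 with a library left out, and in Dax1KO cells 8 became 2 of 3 and 6 to 9. The difference between media, 1, became 5 by DESeq2, 0 without a filter, 0 with at least 10 counts and 0 to 4 with a library left out.

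For the other 2-cell-state genes (35 tested, 41 without a filter and 15 with at least 10 counts in every library), 18 in 2i/LIF became 9 without a filter, 7 with at least 10 counts and 5 to 19 with a library left out, 2 in LIF/serum became 1 to 3, 29 in control cells between media became 13 with at least 10 counts, 32 in Dax1KO cells became 14, and 16 for the difference became 4, 5 and 3 to 15 without a filter, with at least 10 counts and with a library left out. Over all genes, 656 of 20749 were called in Dax1KO against control in 2i/LIF. This became 121 of 32103 without a filter and 753 of 16043 with at least 10 counts in every library. For the difference between media, 596 of 20749 became 119 of 32103 and 630 of 16043 in the same order. When either Dax1KO library in 2i/LIF was left out, calls over all genes for these comparisons fell too. Without a filter or with separate fits, other numbers of genes enter the adjustment. For other changes the cause was not tested.

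With the replicate number as a block, 4 of the 9 were called in 2i/LIF, 0 in LIF/serum, 5 and 9 between media in control and Dax1KO cells, and 0 for the difference between media, and 19, 2, 28, 32 and 16 of the other genes. Deviations of same-numbered libraries correlated at 0.0796 in 2i/LIF and 0.108 in LIF/serum, and no source says that a number marks a shared culture.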
